A study of Mus musculus with 12 samples.

Results

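Cytochrome P450 (P450) families 1 to 4 hold the liver enzymes that oxidise drugs, toxicants, steroids and fatty acids, and the transcripts of these genes were followed in mouse livers after an overdose of acetaminophen (APAP). Members were the protein-coding genes whose symbol is Cyp, a family number from 1 to 4, a single subfamily letter and a gene number, with at least 10 read counts in at least 3 of the 12 livers. Of 45777 genes in the table, 74 had such a symbol and 58 of these, in 17 subfamilies, met the count minimum. The 16 left out included 8 with no count in any liver, and nearest to the limit were *Cyp2s1* and *Cyp3a57* with 2 livers each and *Cyp2b13* with 1 liver at 10 counts or more. Just inside it were *Cyp4f39* with 7 livers and *Cyp2b9* with 8 livers at that count. P450s whose symbols end in a second letter, such as *Cyp3a41a* and *Cyp4a12a*, fell outside the pattern.

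Liver RNA came from 12 male C57BL/6 mice aged 10 to 12 weeks, with 3 mice in each of 4 groups. The groups were wild-type (WT) mice that received vehicle or APAP, and mice labelled G<alpha>12-/-, a knockout (KO) of *Gna12*, that received either agent. The methods give overnight fasting, a single intraperitoneal overdose of APAP (300 mg/kg body weight), liver collection 6 h later and WT littermates as controls. The vehicle is not named in the sources used here. Whole liver was sequenced after poly-A selection, so hepatocytes and all other liver cells were measured together.

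Each liver held between 49737950 and 69566079 counted reads. *Gna12*, the gene encoding the G protein alpha subunit targeted in the KO mice, ran from 34.8 to 66.7 CPM (read counts scaled to library size by the trimmed mean of M values, TMM) in WT vehicle livers and from 54.6 to 67.2 CPM in vehicle livers labelled KO (log2 fold change 0.19 ± 0.24 (SE), adjusted p = 0.878). With APAP it ran from 23.7 to 58.1 CPM in WT livers and from 43.5 to 48.3 CPM in livers labelled KO (log2 fold change 0.051 ± 0.30 (SE), adjusted p = 0.993). The count therefore does not show the targeted gene lower under the KO label, although a count over the whole gene need not show the loss of a part of it, and the groups are called livers labelled KO throughout. The paper describes PCR of tail DNA, liver qRT-PCR of *Gna12* and immunoblots of its protein in WT and KO mice. It does not state that those were the sequenced livers. Liver APAP replicate 1 of the WT group stood apart, with summed erythroid markers at 17366 CPM against 253 to 749 CPM in the other 11 livers. WT vehicle liver 2 stood apart from the other 5 vehicle livers, with summed neutrophil markers at 15.5 CPM against 0.169 to 0.840 CPM and the acute-phase gene *Fgb* at 12207 CPM against 2176 to 2590.4 CPM. All 8 hepatocyte markers were detected, with sums between 70306 and 145619 CPM.

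P450s are heme enzymes of the endoplasmic reticulum that receive electrons from P450 reductase and insert oxygen into their substrates. In the liver CYP2E1, with contributions from CYP1A2 and CYP3A enzymes, converts APAP to the reactive quinone imine that binds glutathione and then protein. Many of the drug-oxidising members are made mainly by hepatocytes around the central vein, and their genes respond to nuclear receptors and the aryl hydrocarbon receptor. Members of family 4 mainly hydroxylate the end carbon of fatty acids and eicosanoids, and Cyp4a genes are classical targets of the fasting-activated receptor PPARα.

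The sequences just before the start of the 3 genes whose enzymes activate APAP are shown first, because the change of their transcripts is the subject of the main comparison. Each is the 250 bases before the RefSeq start on GRCm38.p6, 5′ to 3′ on the gene's strand, with matches on either strand in capitals to the TATA box (TATAAA), the core of the CAAT box (CCAAT) and the hexamer of nuclear receptors (AGGTCA). The windows were chr7:140763569-140763818 on the plus strand for *Cyp2e1*, chr9:57683656-57683905 on the minus strand for *Cyp1a2* and chr5:145879855-145880104 on the minus strand for *Cyp3a11*.
Cyp2e1: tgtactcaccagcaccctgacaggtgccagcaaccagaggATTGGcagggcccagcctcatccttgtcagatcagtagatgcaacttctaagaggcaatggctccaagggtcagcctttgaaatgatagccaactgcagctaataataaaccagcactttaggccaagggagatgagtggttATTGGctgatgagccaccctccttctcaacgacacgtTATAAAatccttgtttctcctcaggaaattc
Cyp1a2: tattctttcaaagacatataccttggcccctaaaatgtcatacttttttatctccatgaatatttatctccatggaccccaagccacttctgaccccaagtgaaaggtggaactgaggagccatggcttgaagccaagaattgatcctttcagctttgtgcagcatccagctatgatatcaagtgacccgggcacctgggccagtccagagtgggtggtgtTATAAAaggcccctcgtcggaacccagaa
Cyp3a11: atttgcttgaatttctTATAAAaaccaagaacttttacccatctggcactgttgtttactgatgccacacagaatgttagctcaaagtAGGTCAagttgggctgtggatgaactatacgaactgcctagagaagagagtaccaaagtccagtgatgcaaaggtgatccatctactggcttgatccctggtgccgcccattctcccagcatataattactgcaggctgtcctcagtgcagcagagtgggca
*Cyp2e1* and *Cyp1a2* had TATAAA close to the start and *Cyp2e1* also had 2 CCAAT matches on the other strand, whereas *Cyp3a11* had its only TATAAA near the far end of the window and 1 AGGTCA between it and the start. A window was available for 47 of the 58 members, and *Cyp4a10* and *Cyp4a14* were among those without one. Some of the windows are near-copies of each other, such as those of *Cyp2a4* and *Cyp2a5* below, so the members are not independent counts. Over both strands TATAAA was found in 22 of 47 members (46.8%) against 13.0% of all 27025 windows. CCAAT was found in 21 of 47 members (44.7%) against 34.5% of all 27025 windows, AGGTCA in 10 of 47 members (21.3%) against 13.8% of all 27025 windows, and GCGTG, the core bound by the aryl hydrocarbon receptor, in 9 of 47 members (19.1%) against 28.2% of all 27025 windows. The HNF1 core GTTAAT was found in 7 of 47 members (14.9%) against 6.52% of all 27025 windows. TTATGTAA, a D-box bound by DBP and related factors, was found in none of these 47 windows and in 0.862% of all windows. A match is a description of the letters and not evidence of binding, and the motifs may overlap one another.

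A further pair is shown because the closely related genes *Cyp2a4* and *Cyp2a5* followed different patterns across the livers. The windows were chr7:26306942-26307191 on the plus strand for *Cyp2a4* and chr7:26835089-26835338 on the plus strand for *Cyp2a5*, and capitals mark the bases that differ between them in a global alignment.
Cyp2a4: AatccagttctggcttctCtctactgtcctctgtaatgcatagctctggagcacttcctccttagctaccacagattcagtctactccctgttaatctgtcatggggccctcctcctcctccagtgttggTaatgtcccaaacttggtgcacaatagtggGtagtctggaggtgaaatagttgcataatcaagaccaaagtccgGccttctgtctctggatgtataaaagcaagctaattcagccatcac
Cyp2a5: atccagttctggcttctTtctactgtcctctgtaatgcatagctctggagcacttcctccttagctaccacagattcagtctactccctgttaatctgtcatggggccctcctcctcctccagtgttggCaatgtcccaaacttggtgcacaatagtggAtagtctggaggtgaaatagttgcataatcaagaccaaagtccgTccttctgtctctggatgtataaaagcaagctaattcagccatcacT
Of 251 aligned positions, 245 (97.6%) were identical, 4 were substituted and 2 were gaps at the ends. Both windows held 1 TATAAA near the start and 1 GTTAAT, here in lower case because both genes share them. In the transcripts, 11.2% of the 100-base windows of *Cyp2a4* were also present in another gene, all of them in *Cyp2a5*.

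Levels of different genes were compared per length, in TPM, which scales reads by transcript length and library. *Cyp2e1* was the most abundant member, at 5547 ± 2113 TPM (SD, n = 12 livers). It was followed by *Cyp4a14* (1994 ± 708), *Cyp4a10* (1857 ± 527), *Cyp2d9* (1853 ± 348) and *Cyp3a11* (1603 ± 289 TPM), 4 genes whose ranges over the livers overlapped, so their order is not settled. These 5 genes held between 57.0% and 69.9% of all member transcripts in each liver. By mean TPM, 23 members were above 100, 24 lay between 1 and 100 and 11 were below 1.

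By subfamily, Cyp2e, Cyp4a, Cyp2d and Cyp3a made up most of the pool (the sum of member TPM in a liver). *Cyp2e1* alone was 33.3% ± 3.59 of the pool in WT vehicle livers (SD, n = 3 in each group here) and 20.6% ± 3.37 in WT APAP livers. In livers labelled KO it was 31.1% ± 1.09 with vehicle and 22.7% ± 3.53 with APAP, so its share in every APAP liver was below that in every vehicle liver. Cyp4a genes held 18.4% ± 1.17 of the pool in vehicle livers labelled KO and 26.9% ± 1.67 in APAP livers labelled KO, and these groups did not overlap. In WT livers the Cyp4a share was 16.8% ± 9.30 with vehicle and 21.1% ± 3.03 with APAP, where vehicle liver 2, at 6.38%, set the spread. Cyp2d genes took 17.9% ± 1.01 and 21.5% ± 1.19 in WT livers and 17.4% ± 1.53 and 18.3% ± 1.59 in livers labelled KO, with vehicle and APAP in that order. Shares of a pool are tied to each other, so a lower share of *Cyp2e1* raises the others.

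The whole pool was 25737, 19088 and 23083 TPM in WT vehicle livers, 11484, 17161 and 16345 TPM in WT APAP livers, 26303, 23583 and 19751 TPM in vehicle livers labelled KO and 19374, 20824 and 16772 TPM in APAP livers labelled KO. In TPM, all 3 WT APAP livers were below all 3 WT vehicle livers and the groups labelled KO overlapped. Summed in CPM, the scale of the tests, APAP livers were below vehicle livers under both labels, at 17737 to 22497 against 24442 to 29444 CPM in WT livers and 17489 to 22229.6 against 25675 to 28669 CPM in livers labelled KO. APAP liver 1 of the WT group was the lowest in TPM and the highest of its group in CPM. Its TPM values were also low against its CPM values for genes in general (median log2 ratio -0.71, against -0.29 to 0.27 in the other livers). The part of that scale difference in the pool was not tested, and all tests below use counts with TMM scaling.

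**Figure D1:**
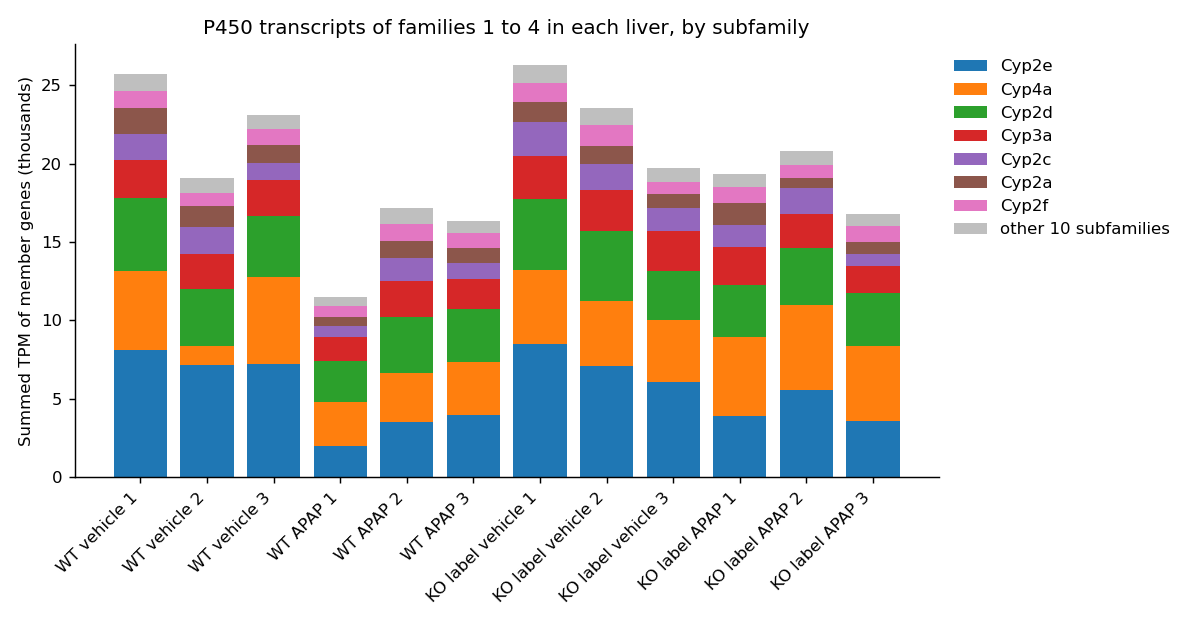
Summed TPM of the 58 members in each of the 12 livers, stacked by the 7 largest subfamilies with the other 10 in grey. The Cyp2e segment is smaller in all 6 APAP livers than in all 6 vehicle livers, and the Cyp4a segment is smallest in WT vehicle liver 2.

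The first question was how the 3 genes of APAP activation changed 6 h after the dose. Transcripts of *Cyp2e1* (chr7:140763819-140774990 on GRCm38), whose enzyme is the main APAP oxidase, were about 2-fold lower with APAP, and *Cyp1a2* (chr9:57676937-57683655) fell as well, while *Cyp3a11* (chr5:145854607-145879854) did not pass the test. *Cyp2e1* was at 8239.8, 8648 and 8311 CPM in WT livers with vehicle and 3541, 3288 and 4234 with APAP, and at 7617, 7509.5 and 8045 CPM in livers labelled KO with vehicle and 3496, 5348 and 3305 with APAP. The highest APAP liver, replicate 2 under the KO label, was still below the lowest vehicle liver. Over all 12 livers, with genotype as a term, edgeR's quasi-likelihood test with Benjamini-Hochberg adjustment over all genes gave a log2 fold change of -1.06 ± 0.14 (SE), adjusted p = 0.000262, a 2.08-fold lower level. Within WT livers it was -1.18 ± 0.23 (SE), adjusted p = 0.0502, just short of the threshold of 0.05, and within livers labelled KO it was -0.92 ± 0.22 (SE), adjusted p = 0.0221. In the 6 livers labelled KO the call was lost when either of vehicle livers 2 and 3 or either of APAP livers 1 and 3 was left out (adjusted p up to 0.0816).

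*Cyp1a2* was at 241, 352 and 199.6 CPM in WT livers with vehicle and 96.0, 236 and 136 with APAP, and at 230.3, 301 and 272 CPM in livers labelled KO with vehicle and 149.7, 133 and 107 with APAP. The APAP livers were the lower ones under the KO label without overlap, whereas WT APAP liver 2 lay within the WT vehicle range. Over all livers *Cyp1a2* fell (log2 fold change -0.90 ± 0.21 (SE), adjusted p = 0.00785), and it did so within livers labelled KO (log2 fold change -1.03 ± 0.17 (SE), adjusted p = 0.00500), but not within WT livers (log2 fold change -0.75 ± 0.36 (SE), adjusted p = 0.330). *Cyp3a11* was at 2058, 2070.5 and 2223 CPM in WT livers with vehicle and 2219.8, 1761 and 1763 with APAP, and at 2134, 2357 and 2792 CPM in livers labelled KO with vehicle and 1919, 1657 and 1302 with APAP. WT groups overlapped, and under the KO label all APAP livers were below all vehicle livers. The change in *Cyp3a11* missed the threshold over all livers (log2 fold change -0.36 ± 0.14 (SE), adjusted p = 0.0805), in WT livers (log2 fold change -0.14 ± 0.22 (SE), adjusted p = 0.779) and in livers labelled KO (log2 fold change -0.57 ± 0.20 (SE), adjusted p = 0.0712). Without WT APAP liver 1 the *Cyp3a11* difference over the remaining livers passed (adjusted p = 0.0247).

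**Figure D2:**
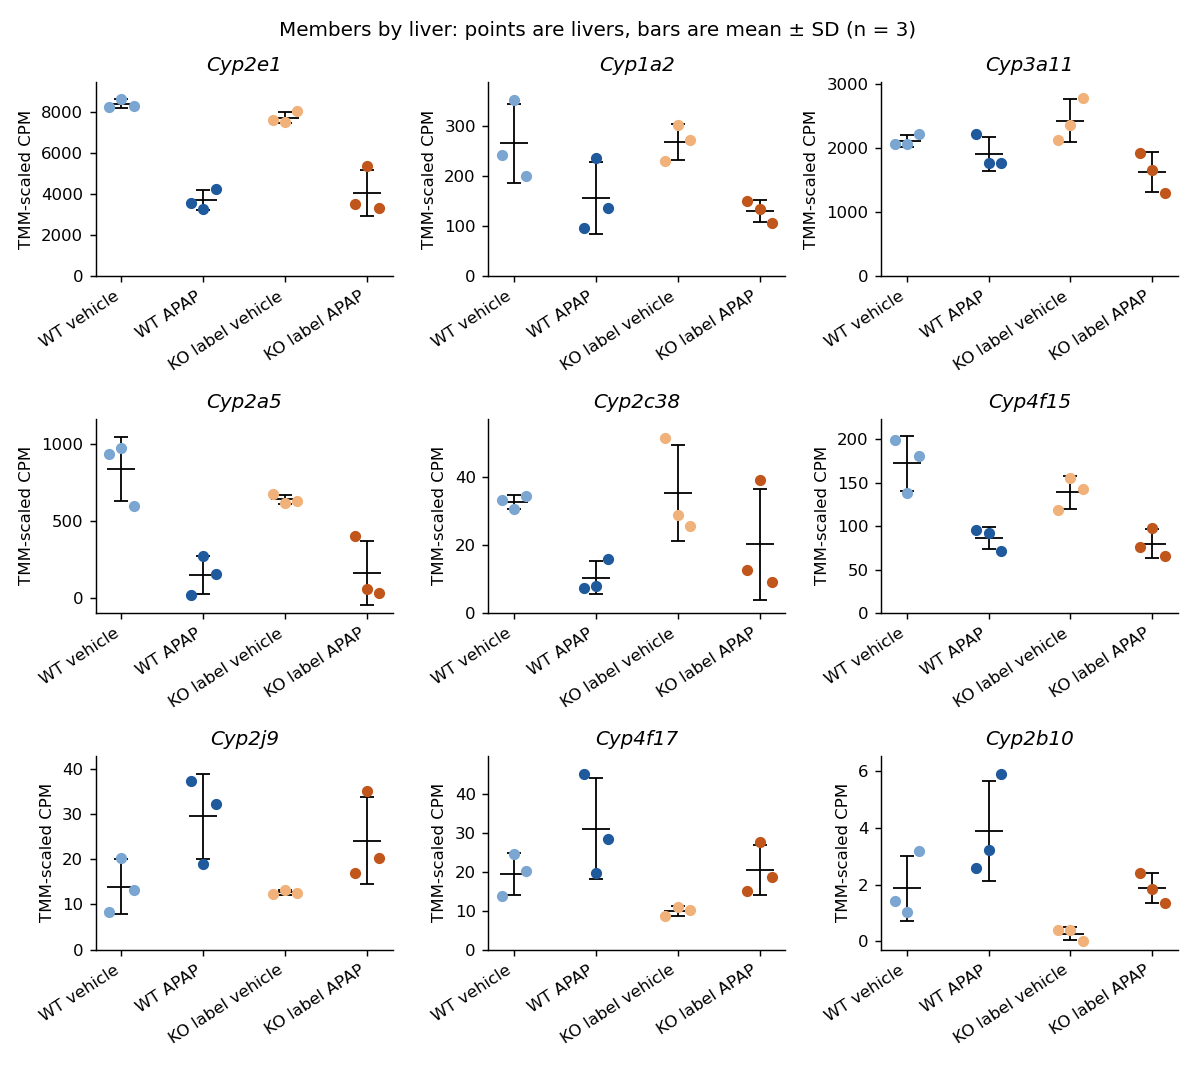
TMM-scaled CPM of 9 members in each liver, by group on the x axis, with black marks for the mean ± SD of 3 livers. Cyp2e1, Cyp2a5 and Cyp4f15 are lower in every APAP liver than in every vehicle liver, whereas Cyp2j9, Cyp4f17 and Cyp2b10 are higher with APAP but overlap between vehicle and APAP over all 12 livers.

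Across all 12 livers, 13 of the 58 members were lower with APAP and 5 were higher, at an adjusted p below 0.05. The lower calls were 22.4% of members, where 11.4% of all 16509 genes tested were lower, and the higher calls were 8.62%, where 14.0% of all genes were higher. The median log2 fold change was -0.25 over the members and 0.00921 over all genes, and 44 members had a value below 0. Lower members included *Cyp2a5*, *Cyp2c38*, *Cyp2c37*, *Cyp2e1*, *Cyp1a2*, *Cyp4f15*, *Cyp3a59*, *Cyp2c54*, *Cyp2d22* and *Cyp4v3*, and the higher members were *Cyp2j8*, *Cyp4f39*, *Cyp2b10*, *Cyp2j9* and *Cyp4f17*. In all, 11 of the 18 calls held whichever liver was left out.

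Markers of other cells and zones moved with the same comparison. The 8 pericentral hepatocyte markers outside the P450 families, such as *Glul* and *Lgr5*, were summed in each liver. Their sums were 1709.8 to 2017 CPM in WT vehicle livers and 396 to 792 CPM in WT APAP livers. Under the KO label they were 1770.1 to 2059 CPM with vehicle and 372 to 778 CPM with APAP. Over all livers 6 of the 8 were lower with APAP, and *Axin2* and *Tbx3* were not called. Within livers labelled KO *Axin2* was called higher, at 3.85 to 5.49 CPM with vehicle and 5.62 to 9.07 CPM with APAP. In WT livers its ranges overlapped. The 8 periportal hepatocyte markers summed to 13916 to 17738 CPM in WT vehicle livers, 10256 to 10836 CPM in WT APAP livers, 9233 to 15938 CPM in vehicle livers labelled KO and 9226 to 10638 CPM in APAP livers labelled KO, and over all livers *Hal*, *Pck1* and *Gls2* fell and *Cdh1* rose (median log2 fold change -0.38). In bulk liver, fewer pericentral hepatocytes and less RNA per cell cannot be told apart. Summed neutrophil markers were 0.169 to 15.5 CPM in WT vehicle livers, 7.87 to 121 CPM in WT APAP livers, 0.195 to 0.840 CPM in vehicle livers labelled KO and 0.544 to 5.71 CPM in APAP livers labelled KO, and 1 of 5 tested was higher. Of all genes, 11.4% were called lower over all livers and 14.0% higher. The part of the marker changes in the P450 results was not tested.

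**Figure D3:**
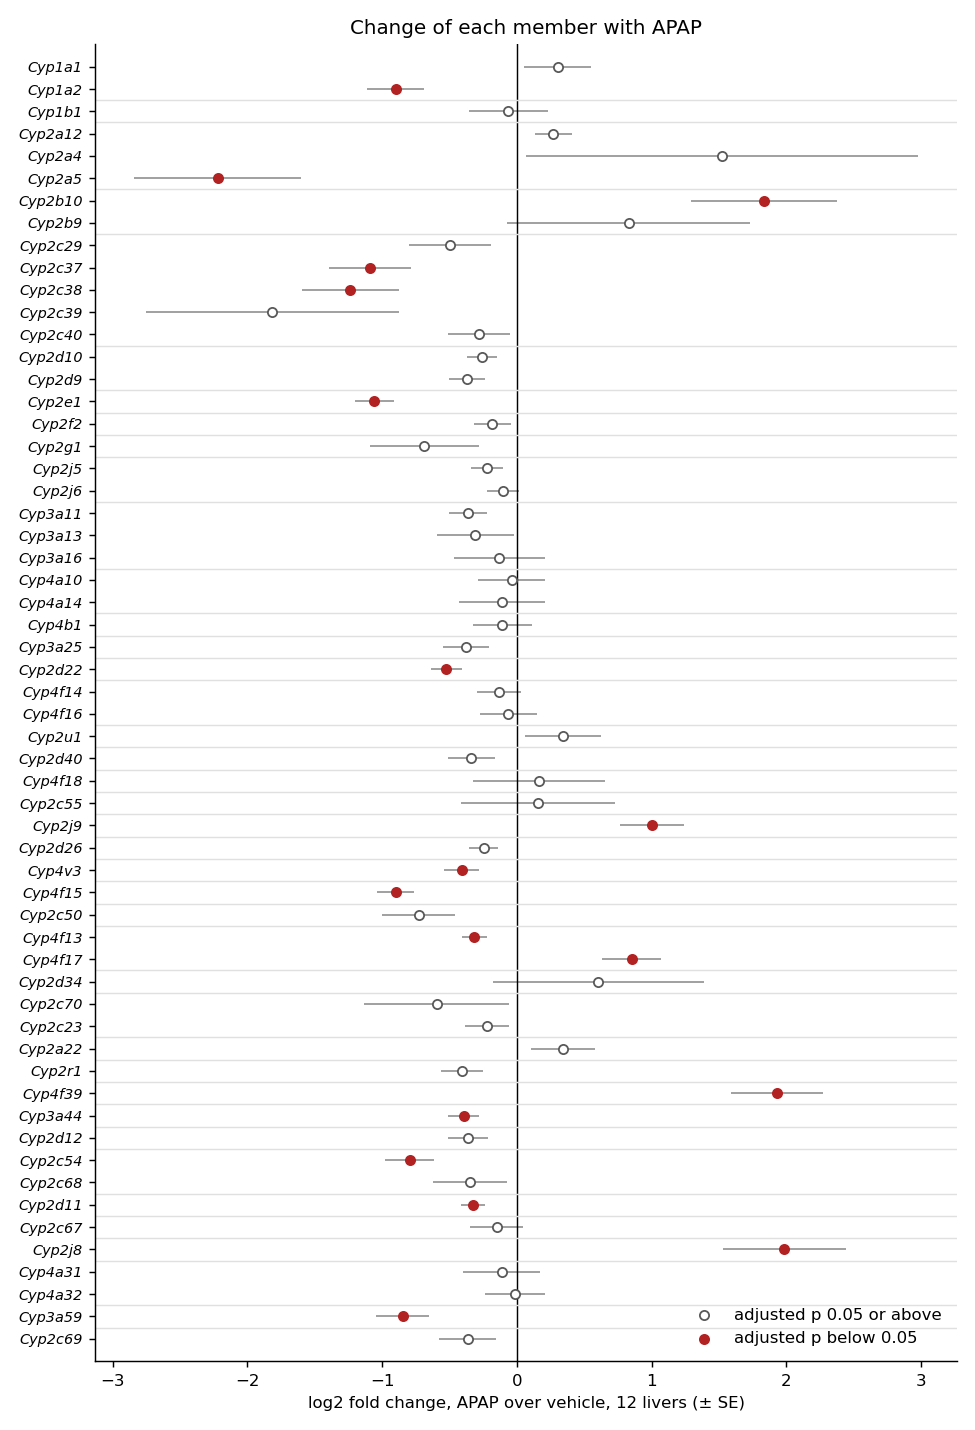
Log2 fold change of each of the 58 members (y axis, grouped by subfamily) between APAP and vehicle over 12 livers, with bars for the SE and red points for an adjusted p below 0.05. There are 13 red points left of 0 and 5 right of it, and the largest drop among them is that of Cyp2a5.

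The counts by subfamily below are over all livers, where 11.4% of all genes were called lower and 14.0% higher. In family 1 only *Cyp1a2* was called. *Cyp1a1* (log2 fold change 0.30 ± 0.25 (SE), adjusted p = 0.414) and *Cyp1b1* (log2 fold change -0.064 ± 0.30 (SE), adjusted p = 0.898), like *Cyp1a2* targets of the aryl hydrocarbon receptor, were below 2 CPM in every liver. Outside the P450s, 2 of the 3 tested aryl hydrocarbon receptor targets rose over all livers. *Nqo1*, a quinone reductase that also responds to oxidative stress, ran from 3.29 through a median of 4.52 to 5.85 CPM with vehicle and from 9.01 through 10.5 to 13.8 CPM with APAP (log2 fold change 1.28 ± 0.16 (SE), adjusted p = 0.000192). *Tiparp*, a repressor of the receptor, ran from 3.69 through a median of 4.24 to 13.2 CPM with vehicle and from 12.3 through 21.8 to 78.1 CPM with APAP (log2 fold change 2.33 ± 0.43 (SE), adjusted p = 0.00194). *Ahrr*, the third, was not called (log2 fold change 1.18 ± 0.69 (SE), adjusted p = 0.242).

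Subfamily Cyp2a had 4 members, of which only *Cyp2a5* fell. *Cyp2a5* (chr7:26835339-26843264) encodes coumarin hydroxylase. *Cyp2a5* was at 934, 974 and 597 CPM in WT livers with vehicle and 21.3, 272 and 155 with APAP, and at 672, 616 and 630.2 CPM in livers labelled KO with vehicle and 401, 56.1 and 35.0 with APAP. Every APAP liver was below every vehicle liver, but the APAP livers themselves spanned from 21.3 to 401 CPM, with WT liver 1 lowest and liver 1 under the KO label highest. The change was 4.66-fold over all livers (log2 fold change -2.22 ± 0.62 (SE), adjusted p = 0.0188) and missed the threshold within WT livers (log2 fold change -2.48 ± 0.77 (SE), adjusted p = 0.148) and within livers labelled KO (log2 fold change -1.95 ± 0.80 (SE), adjusted p = 0.114). *Cyp2a12*, the most abundant member of the subfamily, was not called (log2 fold change 0.27 ± 0.14 (SE), adjusted p = 0.182), and nor was *Cyp2a4*, described below.

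In subfamily Cyp2b, *Cyp2b10*, the classical target of the receptor CAR, rose from low levels. *Cyp2b10* was at 1.43, 1.03 and 3.17 CPM in WT livers with vehicle and 2.58, 3.20 and 5.87 with APAP, and at 0.403, 0.389 and 0 CPM in livers labelled KO with vehicle and 2.41, 1.85 and 1.37 with APAP. These values rest on 0 to 369 reads, and the vehicle livers labelled KO were the lowest. Over all livers the log2 fold change was 1.83 ± 0.54 (SE), adjusted p = 0.0257, and the call was lost without WT APAP liver 3 or without either of vehicle livers 1 and 2 labelled KO (adjusted p up to 0.0670). The other CAR and PXR targets among the members, *Cyp2c29* (log2 fold change -0.50 ± 0.31 (SE), adjusted p = 0.266), *Cyp2c55* and *Cyp3a11*, were not called.

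Of the 13 Cyp2c members, which include many arachidonic acid epoxygenases, 3 fell, none rose and 12 had a fold change below 0. *Cyp2c38* was at 33.3, 30.4 and 34.4 CPM in WT livers with vehicle and 7.25, 7.83 and 15.9 with APAP, and at 51.5, 28.9 and 25.6 CPM in livers labelled KO with vehicle and 12.5, 39.0 and 8.95 with APAP. WT APAP livers were below all WT vehicle livers, while APAP liver 2 labelled KO lay within the vehicle range. *Cyp2c38* was the only member called within WT livers (log2 fold change -1.66 ± 0.31 (SE), adjusted p = 0.0448), and over all livers it also fell (log2 fold change -1.24 ± 0.36 (SE), adjusted p = 0.0234). *Cyp2c37* ran from 44.5 through a median of 101 to 159 CPM in the 6 vehicle livers and from 23.3 through 49.7 to 73.0 CPM in the 6 APAP livers (log2 fold change -1.09 ± 0.31 (SE), adjusted p = 0.0196). *Cyp2c54* ran from 141 through a median of 162 to 195 CPM in the 6 vehicle livers and from 58.5 through 95.9 to 141 CPM in the 6 APAP livers (log2 fold change -0.80 ± 0.18 (SE), adjusted p = 0.00622). Ranges of both genes overlapped through WT vehicle liver 3, the lowest with vehicle. Calls of *Cyp2c37* and *Cyp2c38* were lost without WT vehicle liver 1 (adjusted p = 0.0552) and without vehicle liver 1 labelled KO (adjusted p = 0.0622), respectively. *Cyp2c40*, *Cyp2c69*, *Cyp2c67* and *Cyp2c68* shared 19.8% to 44.1% of their 100-base windows with other genes, so reads may have been split among them, and none of the 4 was called.

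Of the 8 Cyp2d members 2 fell, by small amounts, and 7 had a fold change below 0. *Cyp2d22* ran from 188 through a median of 237 to 261 CPM in the 6 vehicle livers and from 129 through 155 to 191 CPM in the 6 APAP livers (log2 fold change -0.53 ± 0.11 (SE), adjusted p = 0.00518). The ranges overlapped through WT APAP liver 1 and vehicle liver 3 labelled KO. *Cyp2d11* fell less (log2 fold change -0.33 ± 0.090 (SE), adjusted p = 0.0186) and lost the call without WT vehicle liver 1, vehicle liver 2 labelled KO or APAP liver 3 labelled KO (adjusted p up to 0.0551). *Cyp2d11* also shared 12.2% of its 100-base windows with other genes, mostly *Cyp2d10*. *Cyp2d9*, a steroid hydroxylase and the most abundant of them, missed the threshold (log2 fold change -0.37 ± 0.13 (SE), adjusted p = 0.0554). The periportal enzyme *Cyp2f2* (log2 fold change -0.18 ± 0.14 (SE), adjusted p = 0.368), *Cyp2g1* (log2 fold change -0.69 ± 0.40 (SE), adjusted p = 0.238), the vitamin D hydroxylase *Cyp2r1* (log2 fold change -0.41 ± 0.15 (SE), adjusted p = 0.0688) and *Cyp2u1* (log2 fold change 0.34 ± 0.28 (SE), adjusted p = 0.410) were not called.

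Of the 4 Cyp2j members, which metabolise arachidonic acid, 2 rose. *Cyp2j9* ran from 8.36 through a median of 12.8 to 20.3 CPM in the 6 vehicle livers and from 16.9 through 26.3 to 37.2 CPM in the 6 APAP livers (log2 fold change 1.00 ± 0.24 (SE), adjusted p = 0.00794). Levels in WT vehicle liver 2, the highest with vehicle, lay within the APAP range. *Cyp2j8* ran from 0.199 through a median of 0.379 to 0.524 CPM in the 6 vehicle livers and from 0.437 through 1.42 to 2.58 CPM in the 6 APAP livers (log2 fold change 1.98 ± 0.46 (SE), adjusted p = 0.00692), on 9 to 144 reads. *Cyp2j5*, the most abundant of them, was not called (log2 fold change -0.22 ± 0.12 (SE), adjusted p = 0.194). All 6 Cyp3a members had a fold change below 0, and 2 fell. *Cyp3a59* ran from 35.1 through a median of 42.8 to 57.2 CPM in the 6 vehicle livers and from 14.6 through 23.3 to 36.5 CPM in the 6 APAP livers (log2 fold change -0.85 ± 0.20 (SE), adjusted p = 0.00750). WT APAP liver 1, the highest with APAP, lay within the vehicle range. *Cyp3a44*, a female-predominant gene, fell slightly (log2 fold change -0.40 ± 0.12 (SE), adjusted p = 0.0248) and lost the call without WT vehicle liver 1 or 3, or vehicle liver 2 or 3 or APAP liver 2 or 3 labelled KO (adjusted p up to 0.0569).

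In family 4 the Cyp4a genes, which are driven by PPARα during fasting, showed no call, while Cyp4f genes moved in both directions. *Cyp4a14* was at 3709.8, 748 and 4523 CPM in WT livers with vehicle and 2975, 1965 and 2410.4 with APAP, and at 2949, 2771 and 3866 CPM in livers labelled KO with vehicle and 3211, 3538 and 3299 with APAP. WT vehicle liver 2 was the lowest of all 12. The other WT vehicle livers were above all 3 WT APAP livers, whereas the groups labelled KO overlapped, and the change over all livers was not called (log2 fold change -0.11 ± 0.32 (SE), adjusted p = 0.834). That liver also stood apart in the markers given above, whose part in its Cyp4a levels was not tested. The same liver was the lowest for *Cyp4a10*, at 982 CPM against 1638 to 3444 CPM in the others. Without that liver *Cyp4a14* was again not called (adjusted p = 0.249).

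*Cyp4f15* was at 199.7, 138 and 180.4 CPM in WT livers with vehicle and 95.6, 91.9 and 71.7 with APAP, and at 119, 156 and 143 CPM in livers labelled KO with vehicle and 76.0, 97.8 and 65.5 with APAP. Every APAP liver was below every vehicle liver, and *Cyp4f15*, a hydroxylase of eicosanoids, fell 1.87-fold (log2 fold change -0.90 ± 0.14 (SE), adjusted p = 0.000611). *Cyp4f13* fell slightly (log2 fold change -0.32 ± 0.093 (SE), adjusted p = 0.0236), as did *Cyp4v3*, a fatty acid hydroxylase (log2 fold change -0.41 ± 0.13 (SE), adjusted p = 0.0336). Both lost the call without WT vehicle liver 1, WT APAP liver 2 or 3, or vehicle liver 2 or 3 or APAP liver 1 labelled KO, and *Cyp4v3* also without APAP liver 2 or 3 labelled KO (adjusted p up to 0.0690 and 0.103, respectively). *Cyp4f17* ran from 8.67 through a median of 12.4 to 24.5 CPM in the 6 vehicle livers and from 14.9 through 23.6 to 45.1 CPM in the 6 APAP livers (log2 fold change 0.85 ± 0.22 (SE), adjusted p = 0.0126). *Cyp4f39* ran from 0.0840 through a median of 0.141 to 0.319 CPM in the 6 vehicle livers and from 0.299 through 0.625 to 0.934 CPM in the 6 APAP livers (log2 fold change 1.93 ± 0.34 (SE), adjusted p = 0.00144), on 5 to 49 reads. The ranges of both genes overlapped between vehicle and APAP livers. *Cyp4b1* was not called (log2 fold change -0.11 ± 0.22 (SE), adjusted p = 0.752).

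Of the 58 members, 50 had at least 10 counts in every liver. *Cyp2b10*, *Cyp2j8* and *Cyp4f39* did not, and with that stricter filter 2 members were called higher and 13 lower. Without WT APAP liver 1 the all-liver comparison called 27 members, the 18 and in addition *Cyp2c23*, *Cyp2d9*, *Cyp2d10*, *Cyp2d12*, *Cyp2d26*, *Cyp2d40*, *Cyp2r1*, *Cyp3a11* and *Cyp3a25*. Without WT vehicle liver 1 or without vehicle liver 2 labelled KO it called 13.

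The treatment effect was then taken within each genotype label. In WT livers 1 of 58 members was called (1.72%), where 2.05% of all genes were, and the groups did not overlap in CPM for 11 members, where they did not for 24.9% of all genes. That call was *Cyp2c38*, and leaving out WT APAP liver 1 or 2, or any WT vehicle liver, ended it (adjusted p up to 0.155), with *Cyp2u1* called in its place without APAP liver 1. DESeq2's Wald test called 8 members in the same livers, 2 higher (where 5.59% of all genes were) and 6 lower (where 3.42% were), with *Cyp2a5*, *Cyp2c54*, *Cyp2d22*, *Cyp2e1*, *Cyp2j8*, *Cyp4f15* and *Cyp4f39* added. The median log2 fold change was -0.0636 for members and 0.0271 for all genes.

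In livers labelled KO, 5 members rose (8.62%, where 13.0% of all genes did) and 8 fell (13.8%, where 9.60% of all genes did), and the groups did not overlap in CPM for 28 members, where they did not for 42.8% of all genes. Those that rose were *Cyp2b10* (log2 fold change 2.79 ± 0.75 (SE), adjusted p = 0.0306), *Cyp4f39* (2.14 ± 0.52 (SE), adjusted p = 0.0220), *Cyp2j8* (2.07 ± 0.61 (SE), adjusted p = 0.0417), *Cyp4f17* (1.04 ± 0.22 (SE), adjusted p = 0.0134) and *Cyp2j9* (0.94 ± 0.25 (SE), adjusted p = 0.0296). Beside *Cyp1a2* and *Cyp2e1*, those that fell were *Cyp2g1* (log2 fold change -1.54 ± 0.43 (SE), adjusted p = 0.0366), *Cyp3a59* (-1.10 ± 0.15 (SE), adjusted p = 0.00292), *Cyp4f15* (-0.79 ± 0.18 (SE), adjusted p = 0.0159), *Cyp2d40* (-0.67 ± 0.14 (SE), adjusted p = 0.0126), *Cyp4v3* (-0.62 ± 0.15 (SE), adjusted p = 0.0204) and *Cyp2d11* (-0.38 ± 0.12 (SE), adjusted p = 0.0490). *Cyp2g1*, known from the olfactory mucosa, was at 1.02 CPM or less in every liver. Calls of *Cyp1a2*, *Cyp2d40*, *Cyp3a59* and *Cyp4f17* held whichever liver was left out, and the other 9 did not. Their total was 8 without vehicle liver 1, 4 without vehicle liver 2, 5 without vehicle liver 3 and 6 without APAP liver 3. It was 12 without APAP liver 1 and 18 without APAP liver 2, which had the highest *Cyp2e1* and *Cyp2c38* of its group. DESeq2's Wald test called 29 members, 5 higher (where 14.9% of all genes were) and 24 lower (where 12.7% were). The treatment effects under each label use different livers, and their difference is given by the interaction below.

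**Figure D4:**
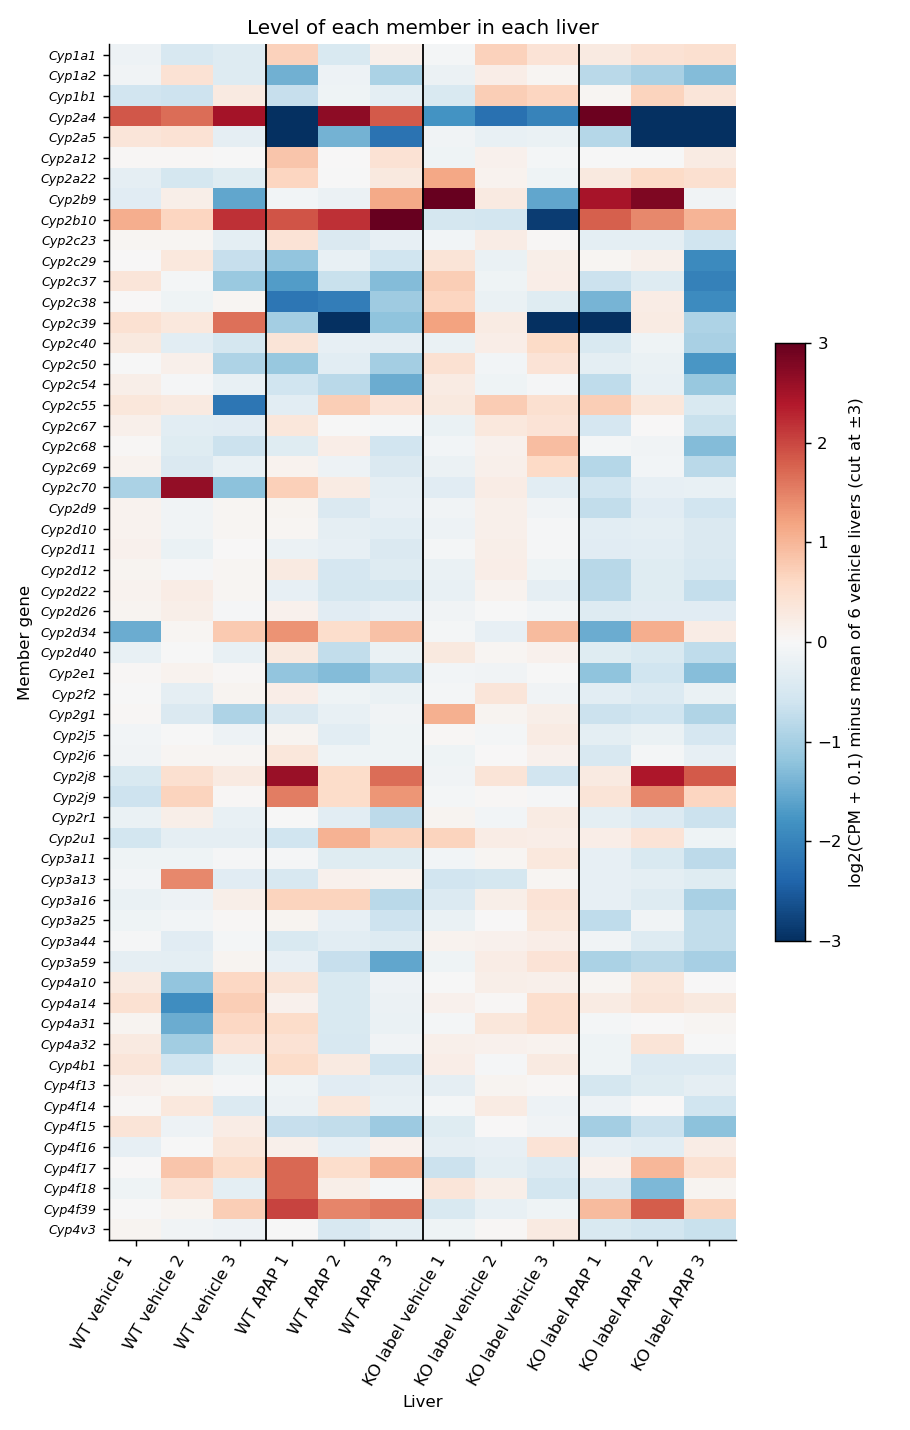
Log2(CPM + 0.1) of each member (rows) in each liver (columns) minus its mean over the 6 vehicle livers, with colours cut at 3 in either direction. Most rows are pale in the vehicle columns, and Cyp2a4 and Cyp2c39 differ most between livers of 1 group.

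The next comparison asked whether the KO label went with another P450 level before any APAP. With vehicle, 1 of 56 members tested (*Cyp2d34* and *Cyp4f39* did not pass the filter on low counts) was called (1.79%, where 0.0262% of all genes were), and that was *Cyp2a4* (chr7:26307192-26315088), a steroid hydroxylase with higher levels in female than male mouse liver. *Cyp2a4* was at 132, 116 and 207 CPM in WT livers with vehicle and 0.675, 232 and 129 with APAP, and at 10.4, 7.59 and 8.93 CPM in livers labelled KO with vehicle and 280.1, 3.39 and 1.12 with APAP. With vehicle, the 3 livers labelled KO were far below the 3 WT livers (log2 fold change -4.08 ± 0.26 (SE), adjusted p = 0.00667), a 16.9-fold lower level. The size stayed between -4.23 and -3.78 on the log2 scale when 1 liver was left out, but the adjusted p rose to 0.113 without vehicle liver 3 labelled KO and was also above the threshold without liver 2 of that group. DESeq2's Wald test called 3 members, with *Cyp2b10* and *Cyp4f17* beside *Cyp2a4*, and 0.898% of all genes. With all 12 livers in one fit, which share 1 estimate of the spread, *Cyp2a4* was not called (adjusted p = 0.769). After APAP the order was lost, with WT liver 1 below all others and liver 1 labelled KO above all others (log2 fold change -0.35 ± 1.94 (SE), adjusted p = 0.993).

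*Cyp2a5*, whose upstream sequence is nearly that of *Cyp2a4*, did not share that difference with vehicle (log2 fold change -0.39 ± 0.21 (SE), adjusted p = 0.732). Within single livers, the ratio of *Cyp2a4* to *Cyp2a5*, both in TPM, was 0.141, 0.119 and 0.346 in WT vehicle livers and 0.0155, 0.0123 and 0.0142 in vehicle livers labelled KO. After APAP it was 0.0308, 0.853 and 0.832 in WT livers and 0.698, 0.0602 and 0.0321 in livers labelled KO. The ratio therefore separated the vehicle groups but not the APAP groups, where WT liver 1 was low and liver 1 labelled KO was high. The shared windows given above count exact matches only, so reads from nearly identical stretches are not counted in them, and how such reads were assigned is not given in the sources used here.

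**Figure D5:**
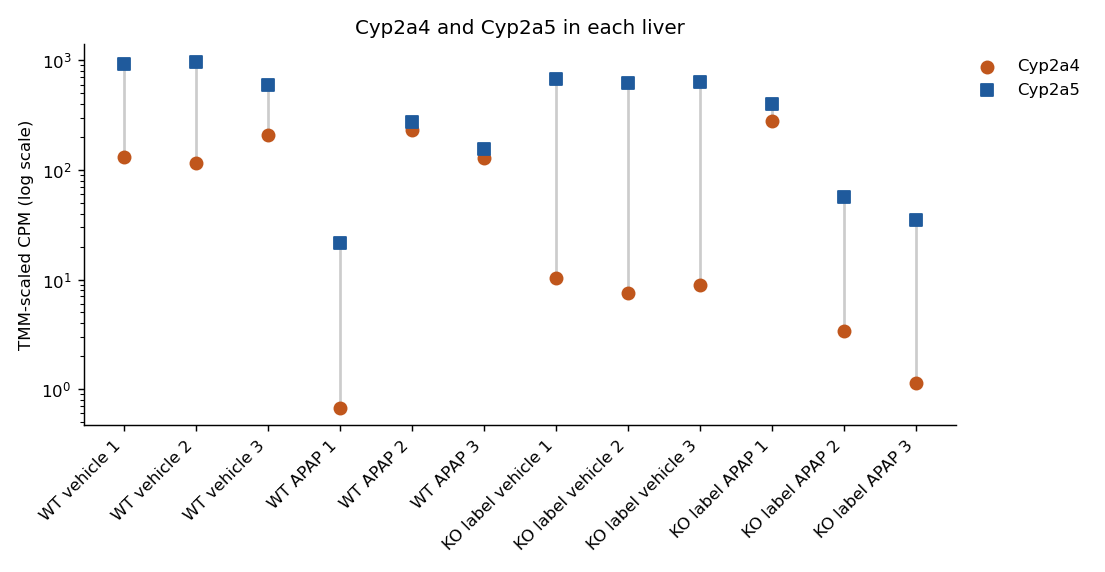
TMM-scaled CPM of Cyp2a4 (circles) and Cyp2a5 (squares) in each of the 12 livers on a log axis, joined by a grey line within a liver. With vehicle the gap is wide in the 3 livers labelled KO and narrower in the 3 WT livers, and after APAP it varies from liver to liver within both groups.

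Of the genes of APAP activation, none was called with vehicle between the labels. *Cyp2e1* had a log2 fold change of -0.12 ± 0.18 (SE), adjusted p = 0.896, *Cyp1a2* had 0.016 ± 0.23 (SE), adjusted p = 0.991 and *Cyp3a11* had 0.20 ± 0.17 (SE), adjusted p = 0.823. After APAP, 0 of 58 members differed between the labels by edgeR, where 0.0309% of all genes were called. DESeq2, which called 0.179% of all genes, and limma called no member either. Of all 16174 genes tested, 536 had an unadjusted p below 0.05, as did 3 of the 58 members. These were *Cyp2b10* (log2 fold change -1.06 ± 0.38 (SE), adjusted p = 0.958), the bile acid hydroxylase *Cyp2c70* (-0.65 ± 0.27 (SE), adjusted p = 0.958) and *Cyp2b9* (2.03 ± 0.86 (SE), adjusted p = 0.958). *Cyp2e1* (log2 fold change 0.12 ± 0.25 (SE), adjusted p = 0.968), *Cyp1a2* (-0.28 ± 0.32 (SE), adjusted p = 0.960) and *Cyp3a11* (-0.25 ± 0.23 (SE), adjusted p = 0.958) were again not called.

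The interaction of label and treatment, which tests whether the APAP effect differed between the labels, called 0 of 58 members by edgeR, and 0% of all genes. DESeq2, which called 0.0545% of all genes, and limma also called no member. Unadjusted p was below 0.05 for 4 of 58 members, and for 848 of all 16509 genes tested. Of the 4 members, *Cyp2g1* (log2 difference -1.73 ± 0.64 (SE), adjusted p = 0.872), *Cyp2c67* (-0.80 ± 0.33 (SE), adjusted p = 0.872) and *Cyp2u1* (-1.12 ± 0.47 (SE), adjusted p = 0.872) had the smallest. For *Cyp2e1* the log2 difference was 0.26 ± 0.29 (SE), adjusted p = 0.898, for *Cyp1a2* it was -0.29 ± 0.43 (SE), adjusted p = 0.923 and for *Cyp3a11* it was -0.43 ± 0.27 (SE), adjusted p = 0.875. A value short of the threshold does not show that the APAP effects were alike under both labels.

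By role, and over all livers, 5 of 8 members known from pericentral hepatocytes fell and none rose (*Cyp1a2*, *Cyp2a5*, *Cyp2c37*, *Cyp2c54* and *Cyp2e1*), with a median log2 fold change of -0.85. The periportal member *Cyp2f2* was not called. Of 12 genes measured from a list of epoxygenases, 3 fell and *Cyp2j9* rose (median -0.55). The list held *Cyp2c70*, named above as a bile acid hydroxylase, and left out the measured member *Cyp2c23*. Its count and median therefore describe that list and not the epoxygenases as a class. Of 11 listed fatty acid ω-hydroxylases 3 fell and *Cyp4f17* rose (median -0.11), and the list left out *Cyp4f39*, which rose. Of 4 PPARα targets, all Cyp4a genes, none was called (median -0.0754). Of 6 female-predominant members tested only *Cyp3a44* fell (median -0.21). Over all livers 11.4% of all genes tested were called lower and 14.0% higher. The median over all 58 members was -0.25.

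Genes that serve the P450s were read from lists outside the families. None of 7 partner genes (electron donors, a heme-binding adaptor and epoxide hydrolases) was called over all livers, although P450 reductase (*Por*) was near the threshold. *Por* ran from 527 through a median of 808 to 988 CPM with vehicle and from 535 through 583 to 715 CPM with APAP (log2 fold change -0.36 ± 0.14 (SE), adjusted p = 0.0696). *Cyb5b* (log2 fold change -0.21 ± 0.11 (SE), adjusted p = 0.201) and *Cyb5r3* (log2 fold change -0.12 ± 0.12 (SE), adjusted p = 0.513), of the cytochrome b5 system, were not called. Of 11 genes of heme synthesis and breakdown, 1 rose and 5 fell, where 14.0% of all genes rose and 11.4% fell. *Hmox1*, the heme oxygenase induced by stress, ran from 10.6 through a median of 13.4 to 48.2 CPM with vehicle and from 485 through 655 to 1204 CPM with APAP (log2 fold change 5.37 ± 0.43 (SE), adjusted p = 4.87e-06). *Fech*, which inserts iron into protoporphyrin, ran from 139 through a median of 149.7 to 168 CPM with vehicle and from 98.8 through 101 to 110.3 CPM with APAP (log2 fold change -0.57 ± 0.086 (SE), adjusted p = 0.000539). *Fech* did not overlap between treatments, and *Uros*, an earlier enzyme of the path, fell as well (log2 fold change -0.43 ± 0.10 (SE), adjusted p = 0.00600). *Cpox*, *Ppox* and *Urod* were the others that fell.

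Of 16 regulators of P450 genes 1 rose and 6 fell over all livers, where 14.0% of all genes rose and 11.4% fell. *Nr1i3*, the receptor CAR, ran from 259 through a median of 349 to 420.1 CPM with vehicle and from 119 through 153 to 184 CPM with APAP (log2 fold change -1.18 ± 0.15 (SE), adjusted p = 0.000147). *Ppara*, the receptor PPARα, ran from 298 through a median of 394 to 455 CPM with vehicle and from 96.9 through 175 to 199 CPM with APAP (log2 fold change -1.20 ± 0.17 (SE), adjusted p = 0.000396). Neither gene overlapped between treatments. *Dbp*, a circadian factor known to act on *Cyp2a4* and *Cyp2a5*, ran from 21.3 through a median of 81.2 to 109 CPM with vehicle and from 13.2 through 16.4 to 35.8 CPM with APAP (log2 fold change -2.00 ± 0.34 (SE), adjusted p = 0.00116). *Tef*, *Hlf*, *Ahr* and *Cebpb* were the others called, and of these *Cebpb* was the one that rose. The Cyp4a genes were not called in the same livers in which *Ppara* was lower.

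PPARα targets outside the P450s moved in both directions, with 3 of 11 higher and 2 lower over all livers. Of all genes, 14.0% were higher and 11.4% lower. *Plin2*, which coats lipid droplets, ran from 247 through a median of 342 to 498 CPM with vehicle and from 559 through 1177 to 2055 CPM with APAP (log2 fold change 1.88 ± 0.32 (SE), adjusted p = 0.00115). *Pdk4*, a kinase that limits glucose oxidation, ran from 2.32 through a median of 3.02 to 9.16 CPM with vehicle and from 15.3 through 18.3 to 22.4 CPM with APAP (log2 fold change 2.25 ± 0.28 (SE), adjusted p = 0.000143). *Fgf21*, a fasting hormone, ran from 3.19 through a median of 7.01 to 16.4 CPM with vehicle and from 17.6 through 30.3 to 70.8 CPM with APAP (log2 fold change 2.32 ± 0.36 (SE), adjusted p = 0.000672). For all 3, every APAP liver was above every vehicle liver, while *Cyp4a10* (log2 fold change -0.040 ± 0.25 (SE), adjusted p = 0.925) and *Cyp4a14* lay in overlapping ranges.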

How the data were processed

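RNA-seq of 12 mouse livers, 3 in each of 4 groups given by the labels, was deposited as 1 table of genes with read counts, FPKM and TPM for each liver, and each column was matched to its liver by name. The deposited counts are unnormalized reads per gene, and the authors scaled FPKM and TPM by transcript length and library. The submitters' processing notes list FastQC 0.11.7, Trimmomatic 0.38, HISAT2 2.1.0, Bowtie2 2.3.4.1 and StringTie 2.1.3b with build mm10 (GRCm38). How reads matching several genes were counted, the strand setting and any batch are not given in the sources used here. Such reads could shift counts between close paralogs. Nothing says whether mice of a group shared a litter or a cage. The p-values set a difference against the spread between these livers and treat the livers as independent. They could be too small if mice of a group did share a litter or a cage.

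Counts of all genes passing filterByExpr were tested with edgeR 4.0.16 (R 4.3.3, quasi-likelihood, TMM), with Benjamini-Hochberg adjustment over all genes and a threshold of 0.05. Comparisons of a pair of groups used the 6 livers concerned, and the all-liver effect (genotype label as a term) and the interaction used 12. A log2 fold change is APAP minus vehicle, or KO label minus WT. Levels are TMM-scaled CPM, or TPM between genes. Alternatives were DESeq2 1.42.0, limma 3.58.1 on TPM, other filters, a replicate block and leaving out each liver. Named by rule were *Cyp2e1*, *Cyp1a2* and *Cyp3a11*, the most abundant member of each subfamily, up to 10 called members in each direction per comparison (the 3 of smallest p where none was called) and up to 3 genes of each outside list. Other genes are named where they complete a count or were chosen after their values were seen, as were *Cyp4a10*, *Cyp2c29* and the pair of *Cyp2a4* and *Cyp2a5*. Members and lists were chosen with earlier results of these data known. The tests were tried on simulated counts whose changes were larger than those of most called members. Livers that stand apart were not simulated. That check therefore cannot show how the tests perform with smaller changes or with such livers. Shared 100-base windows were counted over GENCODE transcripts.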

Additional observations from a re-analysis of the deposited data

How the results depend on the processing

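With all 12 livers, the counts of members called stayed within 1.5 times of 18 under DESeq2's Wald test, its size factors, the newer quasi-likelihood method, both other filters, limma on TPM and the replicate block, and ranged from 13 to 27 when 1 liver was left out. In WT livers 8 members were called by DESeq2's Wald test, 2 with no filter, 3 with all 12 livers in one fit and 0 with the replicate block, against 1, and 0 to 1 when 1 liver was left out. In livers labelled KO, DESeq2's Wald test called 29 members against 13, and leaving out 1 liver gave 4 to 18. With vehicle, KO label against WT, it called 3 members (and 0.898% of all genes) against 1, whereas all 12 livers in one fit and the replicate block each called 0, so that the call of *Cyp2a4* was lost in both (adjusted p = 0.769 and 0.0721), and leaving out 1 liver gave 0 to 1. After APAP and for the interaction every setting run called 0 (0 to 0 when 1 liver was left out). The log2 ratio of the P450 pool, APAP over vehicle, ran from -0.70 to -0.43 in WT livers and from -0.39 to -0.19 in livers labelled KO when 1 liver was left out, and it kept its sign with FPKM, CPM and all matching symbols. The causes were not tested.

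Same-numbered livers did not deviate together (correlations -0.41 to 0.0369), and differently numbered livers ran from -0.21 to 0.49. Such correlations over all genes cannot show whether mice shared a litter or a cage. The replicate block called 12 members in livers labelled KO and 18 over all livers.

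Signs of uncalled changes turned in few cases. With limma on quantile-normalized log2(TPM + 1) and log2(TPM + 0.1), *Cyp2e1* with vehicle, KO label against WT, was 0.061 and 0.061, and over all livers *Cyp1b1* was 0.024 and 0.075 and *Cyp4a14* 0.059 and 0.060. Leaving out 1 liver moved *Cyp1a2* over -0.15 to 0.29 with vehicle and -0.53 to 0.15 after APAP between the labels, and -0.55 to 0.13 in the interaction. *Cyp2e1* after APAP between the labels ran over -0.13 to 0.25, and over all livers *Cyp1b1* ran over -0.22 to 0.12 and *Cyp4a14* over -0.30 to 0.10.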

Other observations

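Livers of 1 group differed in some members far more than in others. The median ratio of the highest to the lowest liver, in CPM, was 1.40 over members with at least 10 counts in each of the 3 WT vehicle livers (the same rule in each group), 1.74 in WT APAP livers, 1.31 in vehicle livers labelled KO and 1.47 in APAP livers labelled KO. It was over 3 for 6, 7, 1 and 8 members, in that order. *Cyp2a4* spanned 343-fold in WT APAP livers and 249-fold in APAP livers labelled KO. *Cyp2c39* was at 77.7, 71.0 and 179 CPM in WT livers with vehicle and 28.0, 1.57 and 24.6 with APAP, and at 130.4, 67.4 and 3.76 CPM in livers labelled KO with vehicle and 1.12, 67.7 and 29.7 with APAP. *Cyp2c39*, an epoxygenase without shared windows, therefore varied within groups that *Cyp2c38* did not divide in the same way, and it was not called over all livers (log2 fold change -1.81 ± 0.94 (SE), adjusted p = 0.181).

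WT vehicle liver 2 combined low Cyp4a levels with high levels of members from other subfamilies. *Cyp2c70* was at 34.3, 410.2 and 27.8 CPM in WT livers with vehicle and 109, 77.9 and 54.3 with APAP, and at 51.8, 76.4 and 52.6 CPM in livers labelled KO with vehicle and 43.4, 55.5 and 56.3 with APAP. Its value was the highest of the 12, and *Cyp3a13* was 676 CPM in that liver against 235 and 196 CPM in the other WT vehicle livers. After APAP, WT liver 1 was in CPM the highest of its group in 39 of 57 members compared, and liver 2 labelled KO was the highest of its group in 34 of 56. In TPM the same WT liver was instead the lowest of its group for the whole pool (11484, 17161 and 16345 TPM) and for the Cyp2e, Cyp2d, Cyp3a and Cyp4a sums. These livers were identified after their values were seen, and no test was made on them.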
